A study of Homo sapiens with 6 samples.

Results

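Fatty acid metabolism was followed through 38 genes that carry out the synthesis, desaturation, elongation, activation and oxidation of fatty acids. The genes were chosen by name for these functions, and each of the 38 symbols matched 1 of the 61859 genes in the count table. They comprise 5 genes of synthesis (ACACA, ACACB, FASN, ACSS2 and THRSP), 5 of desaturation (SCD, SCD5, FADS1, FADS2 and FADS3) and 9 of elongation (ELOVL1, ELOVL2, ELOVL4 to ELOVL7, HACD2, HACD3 and TECR). A further 5 serve activation and binding (ACSL1, ACSL3, ACSL4, ACSL5 and FABP5). Oxidation is covered by 3 genes of the carnitine shuttle (CPT1A, CPT1C and CPT2), 8 of mitochondrial beta-oxidation (ACADVL, ACADM, ACADS, HADHA, HADHB, HADH, ECHS1 and ACAA2) and 3 of the electron transfer flavoprotein system (ETFA, ETFB and ETFDH).

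The study measured RNA by sequencing in IOMM-Lee, an established human line of malignant, grade 3 meningioma. One group of 3 libraries came from hypoxia, in which cells were kept at 0.2% O2 for 48 h. The other group of 3 came from normoxia, also for 48 h, and no oxygen level is recorded for it here. All cells grew in DMEM with 10% fetal bovine serum, so fatty acids were supplied from outside in both groups. The labels call the libraries biological replicates but do not say how the cultures were separated, so p-values measure the spread between these libraries, and IOMM-Lee is 1 line.

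Cells make fatty acids in the cytosol, where acetyl-CoA carboxylase turns acetyl-CoA into malonyl-CoA and fatty acid synthase joins malonyl units into palmitate. Elongases at the endoplasmic reticulum lengthen palmitate, and desaturases, which use molecular oxygen as a substrate, place double bonds in it. For oxidation, acyl-CoA enters mitochondria as acylcarnitine and is shortened by cycles of dehydrogenation, hydration, dehydrogenation and thiolysis, with electrons passed on through the electron transfer flavoproteins.

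Library totals were 10980973, 10619864 and 18447885 counts in hypoxia and 19554178, 14685317 and 16049763 counts in normoxia. At these depths 3 counts correspond to 0.133 to 0.316 CPM (counts scaled to a fixed library size with TMM factors), a limit that covers counting error only. The first principal component held 80.9% of the variance and separated the groups, and the second, with 7.83%, set hypoxia replicate 3 (-47.7) apart from hypoxia replicates 1 and 2 (27.2 and 20.1). All 6 genes of a hypoxia response list were higher in hypoxia, by 3.27 to 6.45 on the log2 scale. Mitochondrially encoded genes took 3.05%, 2.28% and 2.05% of counts in hypoxia and 6.89%, 7.29% and 6.42% in normoxia. Of 8 meningioma and arachnoid markers, VIM, MUC1, DSP and CRABP2 were called higher in hypoxia (log2 change 1.01 to 5.86), SSTR2 was called lower (-1.56, on 59 counts in all), and PTGDS, PGR and CDH1 had 2, 4 and 3 counts in all. The 5 adipocyte markers summed to 4.43 to 5.06 CPM in hypoxia and 5.37 to 7.63 CPM in normoxia, with ADIPOQ at 2 counts in all. The 5 hepatocyte markers summed to 24.3 to 24.6 CPM in hypoxia and 12.2 to 15.7 CPM in normoxia, nearly all from SERPINA1, which was called higher (edgeR adjusted p = 0.000354), while APOA1 and TTR had 0 counts. The part of these markers in the results was not tested.

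Of the 38 genes, 35 had enough counts to be tested, and 31 of them were called at an adjusted p under 0.05 by the quasi-likelihood test of edgeR, with p-values adjusted by Benjamini-Hochberg across the 16411 tested genes. In hypoxia 6 were higher and 25 lower, where 31.2% of all tested genes were higher and 31% lower, 62.2% in all. SCD, SCD5, FADS3, ELOVL1, ACADVL and ECHS1 rose, and TECR, CPT1C, HADHA and HADHB did not pass. The median log2 change of the 35 genes was -0.61, against 0.01 over all tested genes, for which the middle 50% lay between -0.72 and 0.70. A change of at least 2-fold was called upward for 1 gene, ACADVL, and downward for 9, where 16.3% of all tested genes were called at least 2-fold higher and 17.7% at least 2-fold lower. CPM values give a gene's share of the RNA in a library, and in these bulk libraries fewer cells of a kind and less RNA per cell cannot be told apart.

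Library scaling bears on the upward calls. Under library totals alone the median change of all genes moved to -0.30, and 2 members were called higher and 28 lower. SCD (0.31) and ACADVL (1.07) were the pair that kept an upward call, and the split of all called genes moved from 50.1% higher under TMM to 33.1% higher. The directions below are therefore relative to the bulk of the tested genes.

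**Figure D1:**
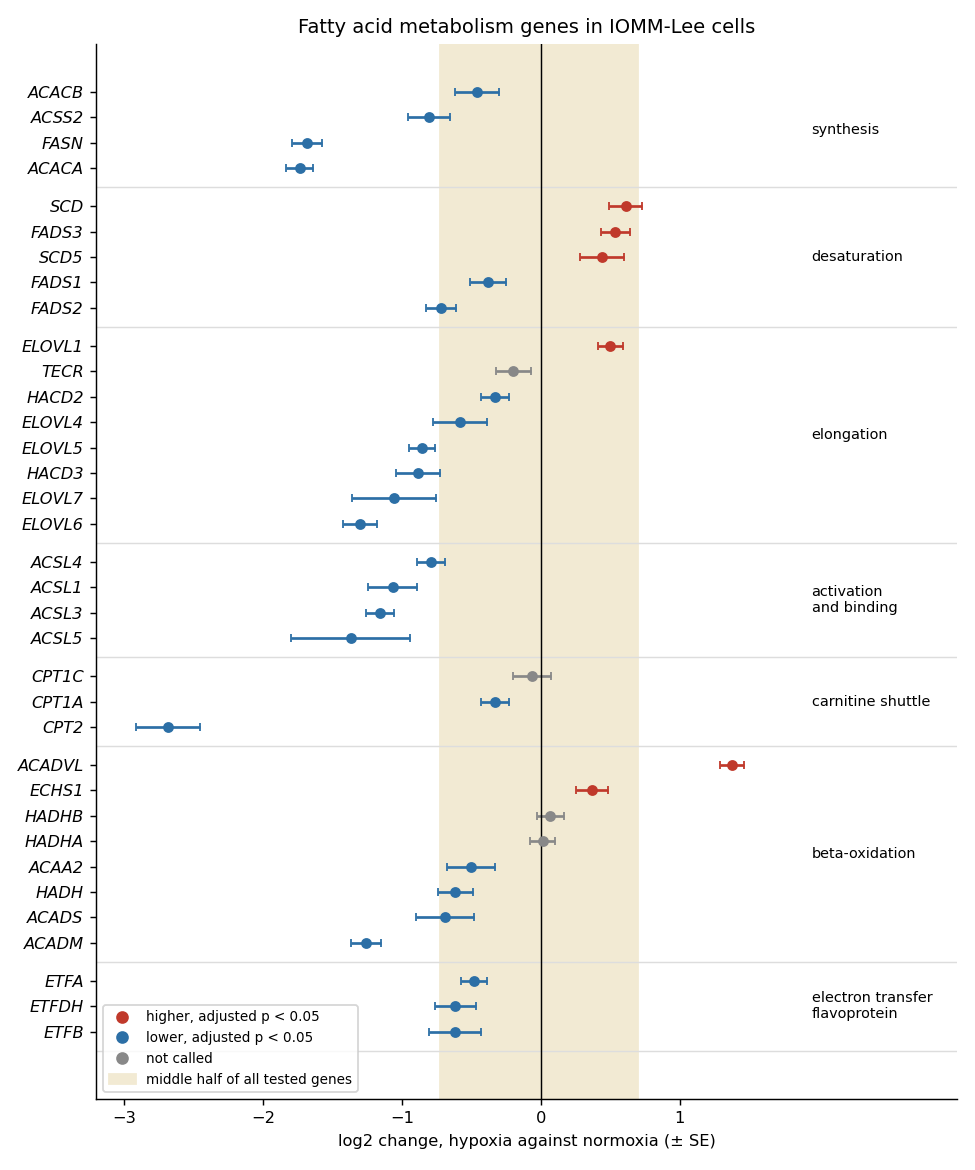
Log2 change of each of the 35 tested genes, hypoxia over normoxia (horizontal axis), grouped by role; points are edgeR estimates, bars are ± 1 standard error, colours give the call, and the shaded band spans the middle 50% of all tested genes. The changes run from -2.68 for CPT2 to 1.38 for ACADVL, and each tested gene of synthesis, activation and the electron transfer flavoproteins lies below 0.

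The entry steps of synthesis were lower in hypoxia. All 4 tested genes of this role fell, where 31% of all tested genes were lower. ACACA, the cytosolic acetyl-CoA carboxylase that makes the malonyl-CoA used for synthesis, is on chr17:37084988-37406818 (GRCh38, minus strand). It was measured at 37.6, 33.5 and 35.3 CPM in hypoxia and at 117, 115 and 122 CPM in normoxia. The groups lay far apart, with means of 35.5 ± 2.06 and 118 ± 3.86 CPM (SD, n = 3 each). ACACA was 3.33-fold lower, a log2 change of -1.74 with a standard error of 0.10 (edgeR adjusted p = 1.64e-07).

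FASN, the fatty acid synthase on chr17:82078333-82098332 (minus strand), fell almost as far. Its levels were 72.5, 78.7 and 91.5 CPM in hypoxia and 273, 248 and 258 CPM in normoxia. No hypoxia library came near the lowest normoxia library, and the means were 80.9 ± 9.67 and 260 ± 12.8 CPM (SD, n = 3 each). FASN was 3.21-fold lower, with a log2 change of -1.68 and a standard error of 0.11 (edgeR adjusted p = 4.28e-07). Per kilobase of exon, FASN stood 17th among the members in hypoxia at 8.64 CPM and 7th in normoxia at 27.7 CPM.

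ACACB, the carboxylase isoform at the outer mitochondrial membrane whose malonyl-CoA inhibits carnitine palmitoyltransferase 1, differed less. It was at 10.9, 13.3 and 9.75 CPM in hypoxia and at 15.7, 14.2 and 16.4 CPM in normoxia, so that the groups were apart by less than 1 CPM at their nearest libraries. The fall was 1.38-fold, and its log2 change was -0.46 ± 0.16 (SE, edgeR adjusted p = 0.0273), and the call ended without hypoxia replicate 1 (0.0557), normoxia replicate 1 (0.0675) or normoxia replicate 3 (0.0771). Within the counts of both carboxylase genes, ACACB made up 22.4%, 28.3% and 21.7% in hypoxia and 11.8%, 11.0% and 11.8% in normoxia. The log2 ratio of ACACB to ACACA counts was -1.66 ± 0.28 in hypoxia and -2.94 ± 0.07 in normoxia (SD, n = 3 each), a 2.42-fold difference with p = 0.1 in the exact two-sided permutation test, the smallest this design allows.

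ACSS2, which makes acetyl-CoA from acetate, was at 9.70, 9.38 and 8.67 CPM in hypoxia and 17.8, 16.2 and 14.2 CPM in normoxia. Again no libraries overlapped, and ACSS2 was 1.75-fold lower (log2 change -0.81 ± 0.15 SE, edgeR adjusted p = 0.000969). THRSP, a regulator of lipogenesis in liver and fat, had 11 counts in all and was not tested. The summed level of the synthesis genes was 137 ± 7.44 CPM in hypoxia and 410 ± 15.6 CPM in normoxia (SD, n = 3 each), 33.5% of the normoxia level.

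**Figure D2:**
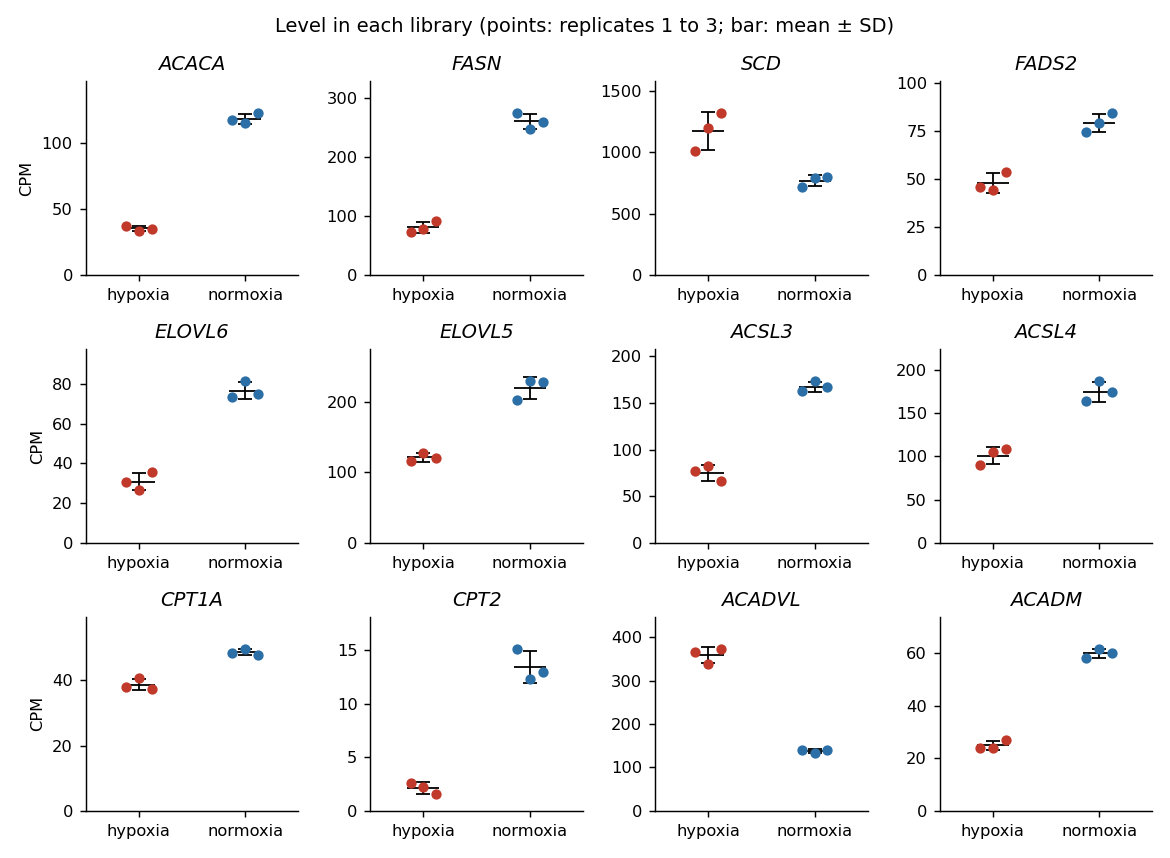
Levels of 12 members in TMM-scaled CPM on linear axes from 0, with hypoxia left of normoxia; points are libraries, wide lines group means and error bars SD (n = 3 each). The groups do not overlap in any panel, with SCD and ACADVL higher in hypoxia and the other 10 genes lower. Of all tested genes 67.9% were apart, 33.4% higher and 34.4% lower. Not all members are shown. TECR, CPT1C, HADHA and HADHB, whose groups overlapped, are left out, as are the higher SCD5, FADS3, ELOVL1 and ECHS1.

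Desaturation was divided, with 3 of 5 genes higher and 2 lower in hypoxia, where 31.2% of all tested genes were higher and 31% lower. SCD, the delta-9 desaturase that makes oleate and palmitoleate, is on chr10:100347124-100364834 (plus strand) and was the most abundant member per kilobase of exon in both groups, at 219 CPM per kilobase in hypoxia and 143 in normoxia. Its levels were 1011, 1199.6 and 1316 CPM in hypoxia and 717, 793 and 798 CPM in normoxia. Every hypoxia library was above every normoxia library, and the means were 1176 ± 154 and 769 ± 45.2 CPM (SD, n = 3 each). SCD was 1.53-fold higher, and its log2 change was 0.61 ± 0.12 (SE, edgeR adjusted p = 0.00103). SCD thus rose while FASN, whose product palmitate is the substrate it shares with elongation, fell, and the ratio of SCD to FASN per kilobase was 25.4 ± 1.16 in hypoxia and 5.19 ± 0.533 in normoxia (SD, n = 3 each). A processed copy, SCDP1, held 385 counts in all libraries together, against 85996 for SCD.

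The brain-enriched paralog SCD5 was at 40.4, 41.5 and 61.3 CPM in hypoxia and 34.97, 36.6 and 34.4 CPM in normoxia. Hypoxia replicate 3 was well above the other 2 hypoxia libraries, which were themselves above all 3 normoxia libraries. The log2 change was 0.44 ± 0.16 (SE, edgeR adjusted p = 0.0294), and without hypoxia replicate 3 it was 0.19 with an adjusted p of 0.108. The call also ended without any 1 of the normoxia libraries (adjusted p from 0.0804 to 0.0978), with no filter on low counts (0.0636) and with library totals alone (0.491). The log2 ratio of SCD5 to SCD counts was -4.64 in hypoxia and -4.44 in normoxia (p = 0.3, exact two-sided permutation test, n = 3 each).

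FADS1 and FADS2, the delta-5 and delta-6 desaturases of polyunsaturated fatty acid synthesis, were lower. FADS2 was at 46.0, 44.4 and 53.9 CPM in hypoxia and 74.4, 79.0 and 84.2 CPM in normoxia, with a wide gap between the groups. Its level was 1.64-fold lower (log2 change -0.72 ± 0.11 SE, edgeR adjusted p = 0.000205). FADS1 was at 100.2, 105 and 142 CPM in hypoxia and 154, 155 and 144 CPM in normoxia, and here hypoxia replicate 3 almost reached the lowest normoxia library. The fall of FADS1 was 1.30-fold (log2 change -0.38 ± 0.13 SE, edgeR adjusted p = 0.0238). It was larger without hypoxia replicate 3 (-0.59), and the call ended without hypoxia replicate 1 (0.0868) or 2 (0.103) and without normoxia replicate 1 (0.0588) or 2 (0.0606). The exons of FADS1 and FADS2 share 490 bases on opposite strands, and the strand setting of the counting is not given in the sources used here. FADS2 also shares 49 bases on its own strand with FEN1, which had a log2 change of -3.10, and the part of shared reads in the FADS2 count was not tested.

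FADS3, a relative that desaturates sphingoid bases, moved the other way from its neighbours in the gene cluster. Its levels were 65.8, 71.2 and 77.1 CPM in hypoxia and 48.6, 46.9 and 52.1 CPM in normoxia, without overlap. The rise was 1.45-fold (log2 change 0.54 ± 0.10 SE, edgeR adjusted p = 0.000975), and it fell short of the threshold under library totals alone (log2 change 0.23, adjusted p = 0.0946). The summed desaturation level was 1458 ± 194 CPM in hypoxia and 1084 ± 47.7 CPM in normoxia (SD, n = 3 each). Without SCD the sums were 283 ± 44.8 and 315 ± 2.81 CPM, and these overlapped, so the higher sum came with SCD.

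Of 8 tested elongation genes 6 fell, ELOVL1 rose and TECR did not pass, where 31% of all tested genes were lower and 31.2% higher. ELOVL6, the elongase that takes palmitate to stearate, was at 30.5, 26.7 and 35.5 CPM in hypoxia and 73.1, 81.3 and 74.9 CPM in normoxia. The highest hypoxia library had less than 50% of the lowest normoxia library, and ELOVL6 was 2.46-fold lower (log2 change -1.30 ± 0.12 SE, edgeR adjusted p = 6.19e-06). ELOVL5, which elongates polyunsaturated fatty acids and is the most abundant elongase per kilobase in normoxia, was at 116, 128 and 121 CPM in hypoxia and 202, 229 and 228 CPM in normoxia. Its groups were tight and apart, with a 1.81-fold fall (log2 change -0.86 ± 0.09 SE, edgeR adjusted p = 1.90e-05).

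ELOVL1, the elongase of saturated and monounsaturated very long chains, was the exception. It was at 105, 105 and 109.7 CPM in hypoxia and 72.2, 73.3 and 80.7 CPM in normoxia, 1.41-fold higher without overlap (log2 change 0.50 ± 0.09 SE, edgeR adjusted p = 0.000727). Library totals alone ended that call (log2 change 0.19, adjusted p = 0.107). Per kilobase, ELOVL1 stood above ELOVL5 in hypoxia, at 42.5 against 31.8 CPM, and below it in normoxia, at 30.1 against 57.6 CPM.

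ELOVL4, known for very long chains in retina and skin, was at 8.75, 9.38 and 14.5 CPM in hypoxia and 16.1, 17.7 and 15.8 CPM in normoxia. The hypoxia library nearest to normoxia was replicate 3, and the 1.498-fold fall (log2 change -0.58, edgeR adjusted p = 0.0226) was -0.89 without it. That call ended without hypoxia replicate 1 (0.0763), hypoxia replicate 2 (0.0839) or normoxia replicate 2 (0.0681). The scarce ELOVL7 was 2.08-fold lower (log2 change -1.06 ± 0.30 SE, edgeR adjusted p = 0.0107), at 1.02 to 1.38 CPM in hypoxia and 2.48 to 2.74 CPM in normoxia. ELOVL2 had 2 counts in all and was not tested.

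The later steps of the elongation cycle are a dehydration and a reduction. HACD3, one of the dehydratases, was at 58.9, 59.3 and 91.9 CPM in hypoxia and 128, 132 and 129.8 CPM in normoxia. Hypoxia replicate 3 stood above the other hypoxia libraries and below all normoxia libraries. HACD3 was 1.85-fold lower (log2 change -0.89 ± 0.16 SE, edgeR adjusted p = 0.000866), and without hypoxia replicate 3 the change was -1.16. HACD2, a second dehydratase, was at 76.8, 77.8 and 66.6 CPM in hypoxia and 97.3, 92.2 and 87.5 CPM in normoxia, 1.25-fold lower (edgeR adjusted p = 0.0148), and the call ended without normoxia replicate 1 (0.0537).

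TECR, the reductase of the last step, was at 84.8, 76.8 and 102 CPM in hypoxia and 113, 97.4 and 91.8 CPM in normoxia, and the groups overlapped. Its log2 change was -0.20 ± 0.13 (SE, edgeR adjusted p = 0.195) with a 95% interval from -0.47 to 0.08. Without hypoxia replicate 3 TECR was called lower (log2 change -0.35, adjusted p = 0.00829), as it was under library totals alone (-0.51, 0.00612) and with no filter on low counts (-0.32, 0.0461). Its exons share 211 bases with DNAJB1 on the opposite strand, which had a log2 change of 1.18. The summed elongation level was 503 ± 34.5 CPM in hypoxia and 714 ± 10.9 CPM in normoxia (SD, n = 3 each).

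The long-chain acyl-CoA synthetase genes ACSL1, ACSL3, ACSL4 and ACSL5, whose products activate free fatty acids for later use, all fell. Of all tested genes, 31% were lower. ACSL3, found on lipid droplets and the endoplasmic reticulum, was at 76.9, 82.5 and 66.3 CPM in hypoxia and 162, 173 and 167 CPM in normoxia. The groups lay far apart, and ACSL3 was 2.23-fold lower (log2 change -1.16 ± 0.10 SE, edgeR adjusted p = 4.23e-06). ACSL4, which prefers arachidonate, was at 89.6, 105 and 108 CPM in hypoxia and 164, 187 and 174 CPM in normoxia, 1.73-fold lower without overlap (log2 change -0.79 ± 0.10 SE, edgeR adjusted p = 6.93e-05). The log2 ratio of ACSL4 to ACSL3 counts was 0.43 ± 0.25 in hypoxia and 0.06 ± 0.05 in normoxia (SD, n = 3 each), with p = 0.1 in the exact two-sided permutation test.

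ACSL1, the main synthetase of heart and fat, was scarcer, at 4.85, 4.79 and 5.24 CPM in hypoxia and 11.2, 9.99 and 10.1 CPM in normoxia. Its 2.09-fold fall separated the groups (log2 change -1.07 ± 0.17 SE, edgeR adjusted p = 0.000331). ACSL5, a mitochondrial and endoplasmic reticulum form, rested on 169 counts in all and was at 0.633, 1.43 and 0.783 CPM in hypoxia and 2.62, 3.19 and 1.46 CPM in normoxia. The nearest libraries almost met, the fall was 2.58-fold (log2 change -1.37 ± 0.43 SE, edgeR adjusted p = 0.0168), and the call ended without hypoxia replicate 1 (0.0507) or normoxia replicate 2 (0.0709). The ACSL5 exons share 144 bases with ZDHHC6 and 224 bases with AL157786.1 on the opposite strand. ZDHHC6 had 327 to 616 counts in hypoxia and 638 to 843 in normoxia (log2 change -0.06). The part of shared reads in the ACSL5 count was not tested. The binding protein gene FABP5 had 8 counts in all, and its 15 annotated pseudogene copies had 119, so its level is uncertain where near-identical copies share reads. The summed activation level was 182 ± 10.8 CPM in hypoxia and 355 ± 16.8 CPM in normoxia (SD, n = 3 each).

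**Figure D3:**
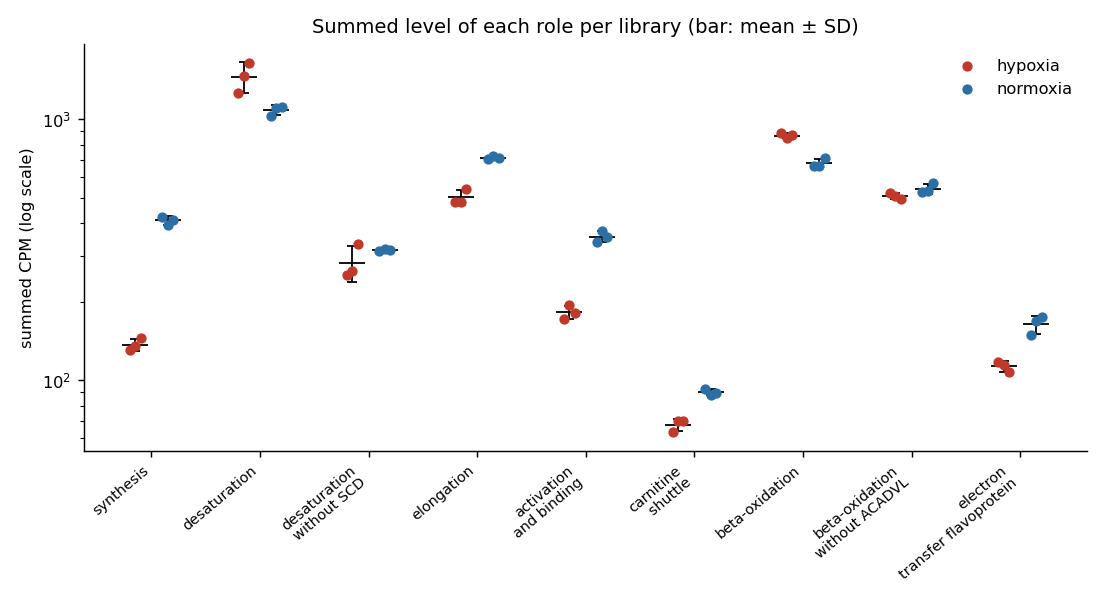
Summed TMM-scaled CPM of the genes of each role on a log axis, with hypoxia left of normoxia; points are libraries, wide lines group means and error bars SD (n = 3 each). Sums were higher in hypoxia for desaturation (1458 against 1084 CPM) and beta-oxidation (866 against 680 CPM), and in the columns without SCD or without ACADVL the hypoxia means lie below the normoxia means.

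The carnitine shuttle was lower at its inner-membrane step. CPT2, the inner-membrane carnitine palmitoyltransferase that returns acylcarnitine to acyl-CoA, lies on chr1:53196429-53214197 (plus strand) and showed the lowest log2 change among the 35 tested genes. It had 25, 22 and 26 counts in the hypoxia libraries and 340, 200 and 222 in the normoxia libraries, or 2.64, 2.24 and 1.57 CPM in hypoxia and 15.1, 12.3 and 12.96 CPM in normoxia. The lowest normoxia library was more than 4 times the highest hypoxia library. CPT2 was 6.42-fold lower (log2 change -2.68 ± 0.23 SE, edgeR adjusted p = 3.23e-06). Its exons share 1151 bases with AL606760.2 and 99 bases with C1orf123 on the opposite strand. Of these neighbours, AL606760.2 had 1, 0 and 1 counts in hypoxia and 3, 4 and 4 in normoxia, and C1orf123 had a log2 change of -0.34.

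CPT1A, the outer-membrane transferase at which malonyl-CoA acts, was at 38.1, 40.8 and 37.4 CPM in hypoxia and 48.4, 49.6 and 47.8 CPM in normoxia. The groups were tight and apart, and the fall was 1.26-fold (log2 change -0.33 ± 0.10 SE, edgeR adjusted p = 0.0140). The ratio of CPT1A to CPT2 per kilobase was 30.0 ± 7.57 in hypoxia and 5.81 ± 0.674 in normoxia (SD, n = 3 each). CPT1C, a neuronal relative with little transferase activity, was at 22.6, 26.8 and 30.6 CPM in hypoxia and 29.2, 26.0 and 28.5 CPM in normoxia and overlapped fully. Its log2 change was -0.06 ± 0.14 (SE, edgeR adjusted p = 0.715) with a 95% interval from -0.36 to 0.24, and it was called lower under library totals alone (-0.37, adjusted p = 0.0460). The log2 ratio of CPT1C to CPT1A counts differed by 0.25 (p = 0.3, exact two-sided permutation test, n = 3 each).

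Of the 8 beta-oxidation genes, 2 rose, 4 fell and 2 did not pass, where 31.2% of all tested genes were higher and 31% lower. ACADVL, the dehydrogenase for very long-chain acyl-CoA at the inner membrane, is on chr17:7217125-7225273 (plus strand) and was at 365, 338 and 372 CPM in hypoxia and 141, 133 and 139 CPM in normoxia. Each hypoxia library held more than double the level of any normoxia library, with means of 358 ± 18.2 and 138 ± 3.92 CPM (SD, n = 3 each). ACADVL was 2.60-fold higher (log2 change 1.38 ± 0.09 SE, edgeR adjusted p = 4.38e-07). Its exons share 85 bases with DLG4 on the opposite strand, and DLG4 had a log2 change of 1.92. What part shared reads have in the ACADVL count was not tested.

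ACADM, the medium-chain dehydrogenase on chr1:75724347-75787575 (plus strand), went the other way. It was at 23.9, 24.1 and 27.1 CPM in hypoxia and 58.2, 61.7 and 60.2 CPM in normoxia. All hypoxia libraries were below 50% of any normoxia library, and ACADM was 2.39-fold lower (log2 change -1.26 ± 0.11 SE, edgeR adjusted p = 2.89e-06). Its exons share 157 bases with RABGGTB on the same strand, which had a log2 change of -0.41. The ratio of ACADVL to ACADM per kilobase was 14.1 ± 0.771 in hypoxia and 2.26 ± 0.127 in normoxia (SD, n = 3 each). ACADS, the short-chain dehydrogenase, was at 5.27, 7.14 and 4.57 CPM in hypoxia and 8.83, 8.33 and 9.98 CPM in normoxia, 1.61-fold lower without overlap (log2 change -0.69 ± 0.21 SE, edgeR adjusted p = 0.0145). Among the 3 acyl-CoA dehydrogenase genes, only ACADVL was higher in hypoxia under each scaling tried.

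HADHA and HADHB encode the subunits of the mitochondrial trifunctional protein, which takes long-chain substrates through the next 3 reactions. HADHA (chr2:26190635-26244726, minus strand) was at 251, 228 and 229.9 CPM in hypoxia and 229.7, 226 and 246 CPM in normoxia. HADHB (chr2:26243170-26290468, plus strand) was at 123, 118 and 101 CPM in hypoxia and 109.9, 105 and 109.8 CPM in normoxia. Both pairs of groups overlapped. The log2 change was 0.01 ± 0.09 for HADHA (SE, edgeR adjusted p = 0.905, 95% interval -0.18 to 0.21) and 0.07 ± 0.10 for HADHB (SE, edgeR adjusted p = 0.566, 95% interval -0.15 to 0.29). These intervals leave out any change as large as that of ACADVL or ACADM, although library totals alone called HADHA lower (-0.30, adjusted p = 0.0143). The log2 ratio of HADHB to HADHA counts was -1.06 ± 0.12 in hypoxia and -1.11 ± 0.05 in normoxia (SD, n = 3 each), with p = 0.5 in the exact two-sided permutation test.

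The enzymes for shorter chains completed the cycle. HADH, the medium- and short-chain hydroxyacyl-CoA dehydrogenase, was at 33.8, 37.8 and 31.0 CPM in hypoxia and 46.1, 51.7 and 59.3 CPM in normoxia, 1.53-fold lower without overlap (log2 change -0.62 ± 0.13 SE, edgeR adjusted p = 0.00161). ACAA2, a thiolase, was at 9.60, 11.3 and 8.19 CPM in hypoxia and 12.5, 13.4 and 15.1 CPM in normoxia. Its groups were apart by little, the fall was 1.42-fold (log2 change -0.50 ± 0.17 SE, edgeR adjusted p = 0.0245), and the call ended without normoxia replicate 2 (0.0530) or 3 (0.0821). ECHS1, the short-chain hydratase, was at 73.7, 82.4 and 93.4 CPM in hypoxia and 59.3, 64.9 and 69.3 CPM in normoxia, 1.29-fold higher (log2 change 0.37 ± 0.11 SE, edgeR adjusted p = 0.0150). The ECHS1 call was not firm: it ended without normoxia replicate 1 (0.0961) or 2 (0.0692), with no filter on low counts (0.152) and with library totals alone (log2 change 0.06, adjusted p = 0.659).

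The summed beta-oxidation level was 866 ± 19.4 CPM in hypoxia and 680 ± 25.5 CPM in normoxia (SD, n = 3 each). Without ACADVL the sums were 508 ± 12.9 and 542 ± 24.5 CPM, with no hypoxia library above a normoxia library. Per kilobase, ACADVL made up 33.8% ± 1.06 of this role in hypoxia and 16.7% ± 0.711 in normoxia (SD, n = 3 each), and it stood second among all members in hypoxia and sixth in normoxia.

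All 3 genes that pass electrons from the dehydrogenases to the respiratory chain fell, each by less than 2-fold. Of all tested genes, 31% were lower. ETFA, the alpha subunit of the electron transfer flavoprotein, was at 71.1, 70.2 and 68.5 CPM in hypoxia and 92.3, 96.6 and 104 CPM in normoxia, tight in hypoxia and 1.40-fold lower (log2 change -0.48 ± 0.09 SE, edgeR adjusted p = 0.000970). ETFB, the beta subunit, was at 32.4, 28.4 and 20.3 CPM in hypoxia and 33.1, 44.2 and 46.7 CPM in normoxia. Its nearest libraries were almost level, the fall was 1.54-fold (log2 change -0.62 ± 0.19 SE, edgeR adjusted p = 0.0145), and without normoxia replicate 3 the adjusted p was 0.0508. ETFDH, the ubiquinone oxidoreductase that receives these electrons, was at 13.8, 15.8 and 18.5 CPM in hypoxia and 23.3, 27.3 and 23.5 CPM in normoxia, 1.53-fold lower without overlap (log2 change -0.61 ± 0.15 SE, edgeR adjusted p = 0.00392). Its exons share 490 bases with PPID and 131 bases with C4orf46 on the opposite strand, and these genes had log2 changes of -0.54 and -2.25. Mitochondrially encoded RNA was also a smaller share of counts in hypoxia, as given above, and its part in the changes of these nuclear genes was not tested.

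The 21 tested genes from synthesis to activation had 4 higher, 16 lower and a median log2 change of -0.79, where 31.2% of all tested genes were higher and 31% lower. The 14 oxidation genes had 2 higher, 9 lower and a median of -0.49, and the difference between these sets was not tested. By role the medians were -1.24 for synthesis, 0.44 for desaturation, -0.72 for elongation, -1.11 for activation, -0.33 for the carnitine shuttle, -0.24 for beta-oxidation and -0.61 for the electron transfer flavoproteins. Both sets thus held genes called in each direction. The summed level of all members was 3327 ± 226 CPM in hypoxia and 3496 ± 82.1 CPM in normoxia, but without SCD and ACADVL it was 1793 ± 71.9 and 2589 ± 39.5 CPM (SD, n = 3 each). Groups did not overlap for 31 of the 35 genes, 6 higher and 25 lower in hypoxia, where 67.9% of all tested genes were apart, 33.4% higher and 34.4% lower.

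**Figure D4:**
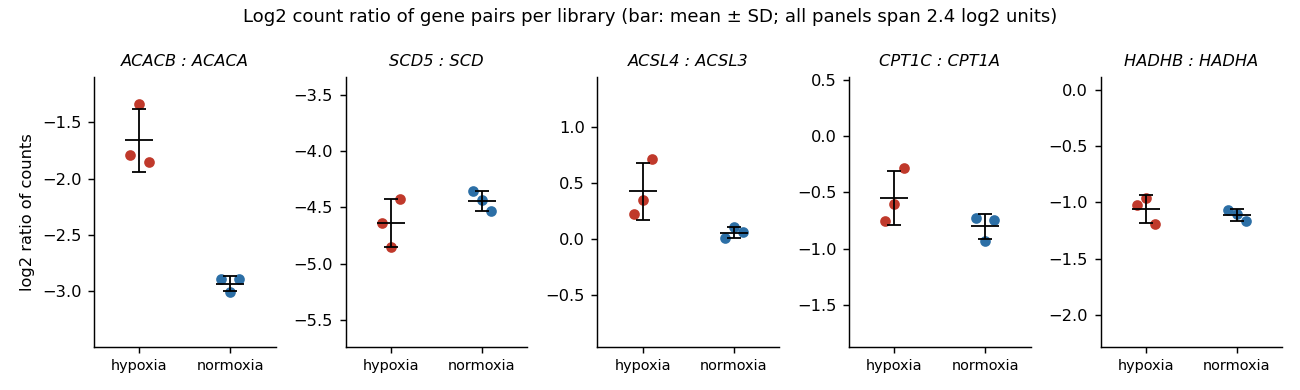
Log2 ratio of counts for 5 pairs of paralogs or subunits, with hypoxia left of normoxia and the same span on each vertical axis; points are libraries, wide lines group means and error bars SD (n = 3 each). The ACACB to ACACA and ACSL4 to ACSL3 ratios lie higher in all 3 hypoxia libraries, and the other 3 pairs overlap.

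Promoter windows of 300 bases (250 before the start and 50 after) were taken from RefSeq on GRCh38.p14. They matched 35 of the 38 members, with 53 windows because 13 members have several starts, and FASN, FABP5 and ETFDH had no entry. The letters searched, on both strands, were these: the hypoxia response core as ACGTG or GCGTG, the sterol-responsive element written as TCACNCCAC, the NF-Y box CCAAT, and the nuclear receptor repeat DR1, which is AGGTCA given again after 1 free base. The hypoxia core was in 34 of the 53 windows, 64.2%, against 48.4% of all promoters and 60% of the promoters of tested genes. CCAAT was in 21 windows, 39.6%, against 34.6% of all promoters. TCACNCCAC was in 1 window, of ACSL1, 1.89% against 1.13% of all promoters, and DR1 was in 0 windows, against 0.0228% of all promoters. Median GC content was 66.3% in the member windows, 58.7% in all promoters and 64.7% in those of tested genes. These shares describe letters only, and they were close to those of the tested genes.

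Windows of selected genes are shown 5′ to 3′ on the gene's own strand. They are in lower case, with matches to the searched letters, on either strand, in capitals. The window of CPT2, the member with the lowest log2 change, holds none of the searched letters and is not shown (chr1:53196574-53196873, plus strand). ACACA is shown for the largest fall in synthesis (its window furthest upstream of 3, chr17:37406787-37407086, minus strand), and SCD for its rise (chr10:100346983-100347282, plus strand).
ACACA: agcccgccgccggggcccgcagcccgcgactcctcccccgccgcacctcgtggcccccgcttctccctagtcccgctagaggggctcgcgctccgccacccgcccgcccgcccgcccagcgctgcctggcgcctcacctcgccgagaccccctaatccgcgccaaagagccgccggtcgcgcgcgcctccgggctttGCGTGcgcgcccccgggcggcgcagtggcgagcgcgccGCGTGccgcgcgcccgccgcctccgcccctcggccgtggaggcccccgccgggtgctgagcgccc
SCD: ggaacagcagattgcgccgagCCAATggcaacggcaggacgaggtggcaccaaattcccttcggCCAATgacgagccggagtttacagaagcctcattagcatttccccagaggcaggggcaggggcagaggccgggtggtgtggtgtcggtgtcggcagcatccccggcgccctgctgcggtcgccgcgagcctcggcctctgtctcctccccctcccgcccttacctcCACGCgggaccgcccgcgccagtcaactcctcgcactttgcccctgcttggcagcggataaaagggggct
The ACACA window shown holds 2 hypoxia cores and no CCAAT, while its other windows hold 1 and 2 CCAAT. The SCD window holds 1 hypoxia core and 2 CCAAT. By call, the hypoxia core was in 71.4% of 7 windows of higher members, 64.9% of 37 of lower members and 57.1% of 7 of members not called. The share was 60% for promoters of tested genes, and differences between calls were not tested. Several windows come from 1 gene and can share bases, as those of TECR do, so windows are not independent. Counted by gene, 28 of the 35 members with a window had the hypoxia core in any of their windows. ACADVL, the only member called at least 2-fold higher, has 2 windows, an upstream one on chr17:7216875-7217174 and a downstream one on chr17:7219688-7219987, both on the plus strand.
ACADVL upstream: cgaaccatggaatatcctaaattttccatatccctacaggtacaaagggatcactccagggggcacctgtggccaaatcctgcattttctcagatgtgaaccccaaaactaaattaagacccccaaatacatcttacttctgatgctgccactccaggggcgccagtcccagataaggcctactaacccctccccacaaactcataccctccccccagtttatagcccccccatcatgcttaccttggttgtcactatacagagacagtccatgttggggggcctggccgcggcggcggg
ACADVL downstream: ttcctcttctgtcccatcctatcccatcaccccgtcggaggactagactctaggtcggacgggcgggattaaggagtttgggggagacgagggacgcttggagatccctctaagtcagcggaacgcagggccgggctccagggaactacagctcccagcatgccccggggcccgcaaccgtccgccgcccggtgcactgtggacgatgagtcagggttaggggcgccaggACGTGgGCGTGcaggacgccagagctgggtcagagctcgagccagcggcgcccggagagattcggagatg
The upstream ACADVL window holds none of the searched letters and the downstream one holds 2 hypoxia cores. HADHA and HADHB, with no call in either direction, are transcribed away from each other from neighbouring starts, and their windows (chr2:26244583-26244882, minus strand, and chr2:26244689-26244988, plus strand) share 194 bases.
HADHA: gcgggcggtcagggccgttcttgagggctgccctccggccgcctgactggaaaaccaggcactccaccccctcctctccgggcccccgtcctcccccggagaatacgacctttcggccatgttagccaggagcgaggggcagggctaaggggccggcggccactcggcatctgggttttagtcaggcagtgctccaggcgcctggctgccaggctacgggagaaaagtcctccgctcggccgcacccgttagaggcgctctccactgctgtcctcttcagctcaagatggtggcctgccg
HADHB: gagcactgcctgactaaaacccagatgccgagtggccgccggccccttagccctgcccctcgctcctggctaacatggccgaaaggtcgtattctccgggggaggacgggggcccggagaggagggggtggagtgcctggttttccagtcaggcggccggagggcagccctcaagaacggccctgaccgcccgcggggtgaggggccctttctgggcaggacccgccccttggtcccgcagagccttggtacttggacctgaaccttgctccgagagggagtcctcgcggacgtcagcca
Neither of these windows holds any of the searched letters. The single window with TCACNCCAC is 1 of several windows of ACSL1, which fell, and lies at chr4:184805504-184805803 on the minus strand. The furthest upstream ACSL1 window, at chr4:184825919-184826218, holds no TCACNCCAC.
ACSL1: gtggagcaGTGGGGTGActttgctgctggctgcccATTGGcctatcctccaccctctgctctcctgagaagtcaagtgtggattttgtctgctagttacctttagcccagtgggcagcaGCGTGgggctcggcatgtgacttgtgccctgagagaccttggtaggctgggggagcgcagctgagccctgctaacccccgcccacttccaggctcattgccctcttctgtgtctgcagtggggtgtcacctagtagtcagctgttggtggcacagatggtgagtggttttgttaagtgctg

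Other genes of the pathway were described from lists of functions, whose counts are to be read against the 31.2% higher and 31% lower among all tested genes. Among 13 regulators of sterol and fatty acid synthesis, 5 were higher and 7 lower (median log2 change -0.29), and under library totals alone 3 were higher and 8 lower. SREBF1, which encodes the main transcription factor of fatty acid synthesis, was 1.85-fold lower, at 52.0 ± 0.549 CPM in hypoxia and 96.4 ± 3.86 CPM in normoxia (SD, n = 3 each, edgeR adjusted p = 1.12e-05). Its relative SREBF2, which drives cholesterol synthesis, was 1.371-fold higher, at 303 ± 3.998 and 221 ± 2.41 CPM (edgeR adjusted p = 0.000659), a call that ended under library totals alone (0.207). INSIG1 and INSIG2, which hold the SREBP proteins at the endoplasmic reticulum, were 2.15-fold and 9.05-fold higher (edgeR adjusted p = 5.29e-06 and 4.50e-09). INSIG2 was at 185 ± 7.77 CPM in hypoxia and 20.5 ± 1.34 CPM in normoxia. MBTPS2, a protease that releases SREBP, was 2.55-fold lower, MLX, a partner of the carbohydrate-response factor, 2.098-fold higher and NR1H3, the liver X receptor alpha gene, 2.22-fold lower. The gene of the carbohydrate-response factor itself, MLXIPL, was scarce and was called lower (edgeR adjusted p = 0.00217). It had 0, 2 and 3 counts in hypoxia and 34, 15 and 16 in normoxia.

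Among 13 regulators of oxidation, 5 were higher and 4 lower (median -0.10), where 62.2% of all tested genes were called. The higher ones numbered 3 without normoxia replicate 1, without normoxia replicate 2 or with no filter on low counts, and 2 under library totals alone. PPARGC1B, a coactivator of mitochondrial genes, was 5.71-fold lower, at 2.98 ± 0.262 CPM in hypoxia and 17.1 ± 1.01 CPM in normoxia (SD, n = 3 each, edgeR adjusted p = 7.06e-07). Its relative PPARGC1A was scarce, with 0, 0 and 4 counts in hypoxia and 21, 13 and 13 in normoxia (edgeR adjusted p = 0.00682). PPARA, the receptor that drives oxidation genes in liver, was at 54.9, 51.9 and 84.9 CPM in hypoxia and 47.4, 48.7 and 46.3 CPM in normoxia. Its 1.35-fold rise (edgeR adjusted p = 0.0462) was not called without hypoxia replicate 3 (0.179) or without any 1 of the normoxia libraries (0.115 to 0.124), nor under the other scalings (0.0511 to 0.541). PRKAB2, a subunit of the AMP-activated kinase that phosphorylates acetyl-CoA carboxylase, was 3.53-fold higher (edgeR adjusted p = 2.83e-07), and PPARD was 1.63-fold higher. Of the kinase's catalytic subunits, PRKAA1 was 1.49-fold lower and PRKAA2 was 1.42-fold higher (edgeR adjusted p = 0.00278), the second of which was not called under library totals alone (0.196). MLYCD, which degrades malonyl-CoA, was 2.63-fold lower (edgeR adjusted p = 0.0354), and its call ended without hypoxia replicate 2 (0.0724) or normoxia replicate 1 (0.0931) or 2 (0.0773).

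The supply of citrate, acetyl-CoA and NADPH was lower in 5 of 8 genes and higher in 2 (median -0.41), where 31% of all tested genes were lower and 31.2% higher. One of the higher pair, ME1, an NADPH-forming malic enzyme gene, was 1.22-fold higher (edgeR adjusted p = 0.0495). Its call ended under RLE, upper-quartile and library-total scaling, DESeq2, no filter, the replicate block and without any 1 library other than hypoxia replicate 1 (adjusted p from 0.0544 to 0.882 over these), and without normoxia replicate 2 none of the 8 was called higher. ACLY, which cleaves citrate into cytosolic acetyl-CoA, was 2.001-fold lower, at 100.2 ± 6.002 CPM in hypoxia and 201 ± 12.2 CPM in normoxia (SD, n = 3 each, edgeR adjusted p = 6.28e-06). The citrate carrier gene SLC25A1 was at 134, 120 and 68.4 CPM in hypoxia and 63.4, 60.5 and 68.3 CPM in normoxia, with hypoxia replicate 3 level with normoxia. SLC25A1 was 1.67-fold higher (edgeR adjusted p = 0.0192), and the call ended without normoxia replicate 2 (0.0646) and under library totals alone (0.0978). IDH1 and MDH1, cytosolic dehydrogenases of isocitrate and malate, were 1.76-fold and 1.96-fold lower.

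Auxiliary mitochondrial oxidation, 12 tested genes, had 0 higher and 9 lower in the edgeR test (median -0.88), where 31.2% of all tested genes were higher and 31% lower. DESeq2 and limma-voom also called 0 higher and 9 lower, and without hypoxia replicate 3 edgeR called 1 higher. SLC25A20, the carrier that moves acylcarnitine across the inner membrane and so stands between CPT1A and CPT2, had 3, 4 and 12 counts in hypoxia and 35, 28 and 21 in normoxia, 2.90-fold lower (edgeR adjusted p = 0.00937). ACADL was 3.17-fold lower, ACAD10 2.42-fold lower and DECR1, the dienoyl-CoA reductase for unsaturated chains, 2.01-fold lower. Peroxisomal oxidation, 14 tested genes, had 3 higher and 8 lower (median -0.92), and 1 higher without normoxia replicate 2 or under library totals alone. EHHADH, a peroxisomal bifunctional enzyme, was 6.04-fold lower, at 5.37 ± 2.66 CPM in hypoxia and 31.4 ± 1.71 CPM in normoxia (SD, n = 3 each, edgeR adjusted p = 3.26e-05), and HSD17B4 and the transporter gene ABCD3 were 2.18-fold and 2.15-fold lower. ACOX2, the oxidase of branched chains and bile acid precursors, was 1.90-fold higher.

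The other elongation and activation enzymes, 12 tested, had 0 higher and 8 lower in the edgeR test (median -0.99), as they had by DESeq2 and limma-voom. Among them the acyl-CoA synthetase genes ACSF2, ACSS1 and ACSS3, named here after their values were seen, were not called (log2 change -0.07, 0.11 and -0.11). The 8 lower genes were HACD1, HACD4, HSD17B12, MCAT, OXSM, MECR, CBR4 and CYB5A, so not all serve elongation and none is an acyl-CoA synthetase. MECR (3.17-fold lower) and MCAT (2.88-fold lower) encode enzymes of the separate synthesis of fatty acids in mitochondria. HACD4 (2.83-fold lower) encodes a further dehydratase of elongation. For uptake and binding, 9 tested genes had 2 higher and 4 lower (median -0.30). VLDLR, a receptor for triglyceride-rich lipoproteins, was 5.62-fold higher, at 150.4 ± 8.28 CPM in hypoxia and 26.8 ± 2.22 CPM in normoxia (SD, n = 3 each, edgeR adjusted p = 2.78e-08). The fatty acid transport protein gene SLC27A1 was 1.67-fold higher, whereas SLC27A3 and SLC27A4 were 5.89-fold and 3.14-fold lower. FABP6 had the largest fall of this list, 6.21-fold (edgeR adjusted p = 3.50e-05). It was at 3.35 ± 1.48 CPM in hypoxia and 20.1 ± 4.76 CPM in normoxia (SD, n = 3 each).

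**Figure D5:**
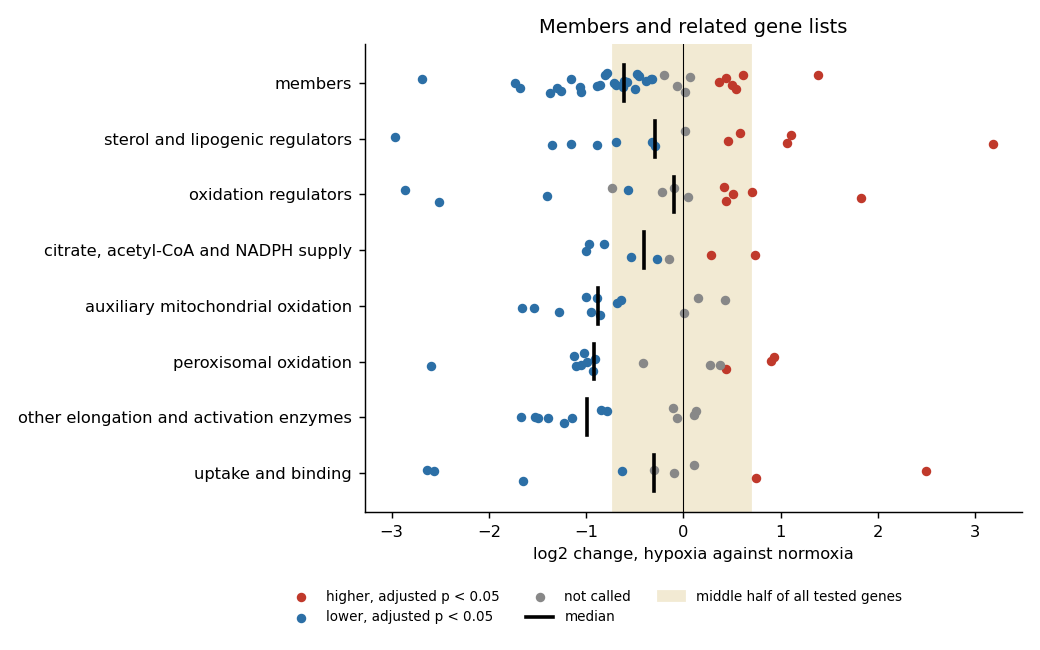
Log2 changes, hypoxia over normoxia, of the tested genes among the members and in each pathway list; points are genes coloured by call, vertical bars list medians, and the shaded band spans the middle 50% of all tested genes. The list medians run from -0.99 for the other elongation and activation enzymes to -0.10 for the oxidation regulators, against 0.01 for all tested genes. The list with the lowest median also holds genes of fatty acid synthesis in mitochondria.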

How the data were processed

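RNA was sequenced from 3 hypoxia and 3 normoxia libraries of IOMM-Lee cells, grouped by their titles. The deposited values are raw read counts per Ensembl gene. Per the submitters' processing notes, the tools were fastp 0.20.1, HISAT2 2.1.0, featureCounts 2.0.1 and DESeq2 1.37.5 with build GRCh38.p13. The strand setting is not given in the sources used here. Per the labels' protocols, RNA had an integrity number of at least 9.0 and the NEBNext Ultra II kit was used for the libraries. A line of the table that names no gene held 0.00243% of counts and entered neither the totals nor the tests.

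Counts were analysed in R 4.3.3 with edgeR 4.0.16. Genes passed filterByExpr (minimum count 10, minimum total 15), and TMM factors were 0.866 to 1.16. The robust quasi-likelihood F test was adjusted by Benjamini-Hochberg over all 16411 tested genes, with a threshold of 0.05. The biological coefficient of variation was 15.3%. Replicates of a group were not copies of each other, since their counts differed beyond sampling noise (5.75 to 39.3 chi-square units per gene). Levels of different genes are set against each other per kilobase of exon, while summed CPM, count shares and count ratios are compared between groups only. Exon length merged all annotated exons of a gene (10452 bases for CPT2), which can exceed the length of any 1 transcript. Ranks and ratios between genes per kilobase therefore depend on the annotation. The 5 count ratios used a pseudocount of 0.5.

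Symbols were found for 61756 of 61859 genes, and coordinates and exon lengths are from GENCODE release 29 on GRCh38. Tests were checked on simulated counts. In these, 34.3% of 67 genes changed 1.5-fold, 61.2% of 67 changed 2-fold and 92.4% of 66 changed 4-fold were called in the right direction. There were 12 false calls among 15832 unchanged genes. Far fewer genes were changed in the simulation than were called in the data. Alternatives were other scalings, other filters, DESeq2 1.42.0, limma-voom 3.58.1, a replicate block and leaving out each library. Members with all their values are described. From each pathway list up to 3 called genes in each direction with the largest changes and a mean CPM of at least 1 were eligible for naming, with a few genes fixed by function, and not all are printed. MLXIPL, HACD1, HSD17B12, OXSM, CBR4 and CYB5A were named outside this rule, after their values were seen. The members, lists and naming rule were chosen with earlier results of these data known.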

Additional observations from a re-analysis of the deposited data

How the results depend on the processing

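Of 525 log2 changes recomputed for the 35 tested members, 482 kept their direction and side of the threshold, and 20 members kept their call under each alternative that was run. The members called higher numbered 6, but 2 with library totals alone and 4 (with 26 lower) with no filter; leaving out 1 library at a time gave 4 to 6 higher and 21 to 26 lower. Direction turned for 3 genes near 0, none of them called in the reported test. With 1 library left out, CPT1C ranged from -0.21 to 0.032, HADHA from -0.045 to 0.035 and HADHB from -0.0059 to 0.12. HADHA was at -0.052 with upper-quartile scaling, -0.30 with library totals alone and -0.11 with no filter. HADHB was at -0.24 with library totals alone and -0.058 with no filter. The causes were not tested. No filter raised the genes tested to 40297 and called 28.1% of them. With a replicate block 6 members were higher and 24 lower, and ACACB lost its call (adjusted p = 0.0522). Same-numbered libraries deviated together with correlations of -0.11, 0.09 and -0.04, so the numbers are not taken to pair them. The 3 alternatives planned on a second, normalized table were not run, because its cells run together. Counts within the pathway lists under these settings were chosen after seeing the data. Low counts limit ACSL5 (169 in all), ELOVL7 (189) and CPT2 in hypoxia among the members. Among the other named genes they limit PPARGC1A (51), MLXIPL (70), SLC25A20 (103), HACD4 (199), SLC27A3 (228), ACADL (243) and MLYCD (312).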
